A study of Mus musculus with 9 samples.

Results

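Mitochondrially encoded transcripts are the RNAs copied from the small circular genome inside mitochondria. The members described here are the 37 rows of the deposited expression table, of 53715 rows in all, whose gene symbol starts with mt-. They divide into 13 genes for proteins, 2 for ribosomal RNA (rRNA) and 22 for transfer RNA (tRNA). The table holds TPM (a read count divided by transcript length and scaled to a fixed sum per library) for 9 RNA-seq libraries of primary myoblasts, the muscle precursor cells, from mice of the strain C57BL/10ScSn-Dmdmdx/J. All 9 libraries carry the mdx allele of the dystrophin gene and came from cells at passage 1. The cells of 3 libraries received glycine at 0.2 mM and those of the other 6 at 0.8 mM. The labels number the libraries in 2 series that coincide with the glycine levels, so glycine and any batch tied to a series cannot be told apart. They do not say whether libraries of a group came from separate cultures or animals, so p-values measure the spread between these libraries, which may be technical. The sources used here do not give sex, age or the rest of the medium.

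The mitochondrial genome is transcribed from both strands as long precursors that span many genes. The polymerase POLRMT starts these precursors with the help of TFAM and TFB2M. In most places a tRNA sits between its larger neighbours, and cutting out the tRNAs at both ends frees the mRNAs and rRNAs, which are then given poly(A) tails. Since the genes share precursors, differences between their steady levels are known to arise largely after transcription, for example through the LRPPRC and SLIRP proteins that protect mRNAs from decay. The protein genes encode core subunits of the respiratory chain, namely the mt-Nd genes for complex I, mt-Cytb for complex III, the mt-Co genes for complex IV (cytochrome c oxidase) and the mt-Atp genes for complex V (ATP synthase). All other subunits, and all of complex II, are encoded in the nucleus. Muscle is rich in mitochondria, and their content increases as myoblasts mature into fibres.

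In the GENCODE M21 annotation of the mouse genome build GRCm38 (mm10), the genes lie almost end to end on chromosome M, and all coordinates below are from that build. Several features of this layout are described, and sequences are shown for them, 5′ to 3′ on the gene's own strand and as DNA. Overlaps and copies bear on which row a read is counted in. Whether the other features bear on the values was not tested. The first is overlap: the end of mt-Atp8 and the start of mt-Atp6 share 43 bases (+ strand, chrM:7927-7969), shown with the start codon of mt-Atp6 in capitals, so reads from this stretch belong to both genes.
mt-Atp8 and mt-Atp6, shared bases: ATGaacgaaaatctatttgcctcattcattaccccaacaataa
The genes mt-Nd4l and mt-Nd4 share 7 bases, and mt-Nd5 and mt-Nd6 share 14 bases on opposite strands. The sources used here do not state how counting used strand, so reads of mt-Nd6, the 1 protein gene on the other strand, cannot be told apart from antisense RNA copied through that gene. The second feature is the tRNA gene that reads the glycine codons, mt-Tg (+ strand, chrM:9391-9458), shown with its anticodon in capitals.
mt-Tg: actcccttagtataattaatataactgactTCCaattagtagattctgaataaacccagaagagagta
It begins on the base after the end of mt-Co3 and ends on the base before mt-Nd3. The third feature is how 3 of the protein genes end in the annotation. The genes mt-Co3, mt-Nd4 and mt-Cytb have lengths of 784, 1378 and 1144 bases, each 1 base over a multiple of 3, so the last codon holds only the T in capitals below, and the stop codon is completed by the poly(A) tail. They are shown because the differences of these 3 genes between glycine levels, given below, held under every alternative tried. The shared ending was noticed after their values were seen, and it was sought by annotated length alone. mt-Nd1 and mt-Nd2 are annotated to overlap the tRNA gene that follows them on the same strand, so their mRNAs may also end short of the annotated stop codon. The ending is therefore not shown to be particular to these 3 genes.
mt-Co3, last 30 bases (+ strand, chrM:9361-9390): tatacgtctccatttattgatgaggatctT
mt-Nd4, last 30 bases (+ strand, chrM:11515-11544): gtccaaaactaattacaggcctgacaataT
mt-Cytb, last 30 bases (+ strand, chrM:15259-15288): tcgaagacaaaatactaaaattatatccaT

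The fourth feature is a copy of part of the mitochondrial genome inside chromosome 1, on its minus strand. It is annotated as 7 unprocessed pseudogenes between bases 24611535 and 24616197, one for each of mt-Nd4, mt-Nd4l, mt-Nd3, mt-Co3, mt-Atp6 and mt-Co2 and for the last part of mt-Co1. Of these, 5 match their mitochondrial gene at every one of their aligned bases. Gm28437 matches 783 of the 784 bases of mt-Co3, Gm28661 matches 681 of the 684 of mt-Co2, Gm10925 matches 678 of the 681 of mt-Atp6, Gm10222 matches 294 of the 297 of mt-Nd4l, and Gm28439 matches the first 876 of the 1378 of mt-Nd4. The other 2 differ from their gene by 1 base each over their aligned bases. Each difference is written as the mitochondrial base, its position from 1 at the start of the gene, and the base of the copy. Gm28438 differs from mt-Nd3 by T3C over 345 bases, and Gm29216 differs from mt-Co1 by A1066T over 483 of its 492 bases. The differing base is in capitals in each pair.
mt-Nd3, first 30 bases (+ strand, chrM:9459-9488): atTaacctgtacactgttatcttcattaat
Gm28438, first 30 bases (minus strand, chr1:24613090-24613119): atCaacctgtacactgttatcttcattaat
mt-Co1, bases 1063 to 1080 (+ strand, chrM:6390-6407): ggaAttgttttatccaac
Gm29216, bases 10 to 27 (minus strand, chr1:24616171-24616188): ggaTttgttttatccaac
A read that covers no differing base fits the mitochondrial gene and its copy equally well. Values are therefore given for the rows as listed and, where a copy was listed at 1 TPM or more in at least 3 libraries, for the sum of gene and copy with the copy weighted by its length. The sums of mt-Co1 and mt-Co2 also hold a copy on chromosome 2 each, Gm13340 and Gm13341, listed at no more than 0.4 and 0.565 TPM in any library.

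The 37 genes together held between 3.05 and 3.7% of TPM in the 9 libraries, with 3.33 ± 0.333% (SD, n = 3) at 0.2 mM and 3.38 ± 0.159% (SD, n = 6) at 0.8 mM. The 13 protein genes made up 1.99 ± 0.231% and 2.1 ± 0.131%, and the 2 rRNA genes 1.34 ± 0.121% and 1.27 ± 0.0563%. The summed TPM of the 13 protein genes was 19931 ± 2308 at 0.2 mM and 21043 ± 1306 at 0.8 mM, a difference within the spread between libraries (p = 0.333 by exact permutation, adjusted p = 0.429 over 18 library measures, higher in 0.8 mM by 0.082 on the log2 scale). TPM are relative to the other RNA of a library, and in bulk samples fewer cells of a type and less RNA per cell cannot be told apart. Nuclear rRNA rows and the gene Yam1 that overlaps them took 17.5 to 23.4% of TPM, and leaving them out of the TPM sum changed no call of a mitochondrial gene. The depth of the libraries is unknown, because TPM keep no number of reads.

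The 13 protein genes and 2 rRNA genes all had at least 1 TPM in 3 or more libraries and were tested. Per length, the row of mt-Atp8 had the highest TPM of the protein genes, with 57.4 to 61% of their sum. It was followed by mt-Co2 and mt-Co1, whose ranges overlapped, and the lowest was mt-Nd3, at 0 to 10.6 TPM as listed. The row of mt-Atp8 measures 204 bases, of which 43 are shared with mt-Atp6, and no tRNA gene lies between them. With TPM multiplied by length, it held 22.4 to 26% of the sum. How far the assignment of reads sets its TPM was not tested, so mt-Atp8 is not shown to be the most abundant mRNA.

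**Figure D1:**
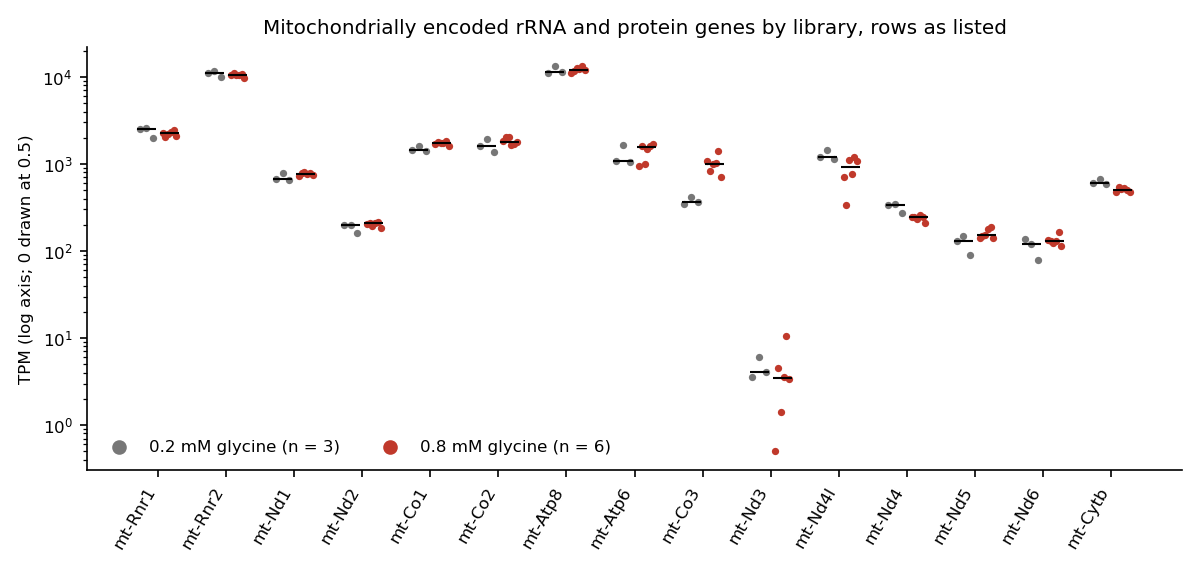
TPM (log axis) of the 2 rRNA and 13 protein genes in each library, rows as listed, with 0.2 mM glycine in grey (n = 3), 0.8 mM in red (n = 6) and a black line at each group's median. The groups overlap for 11 of the 15 genes; mt-Co1 and mt-Co3 are higher, and mt-Nd4 and mt-Cytb lower, in all 6 libraries at 0.8 mM, and 1 library at 0 TPM of mt-Nd3 is drawn at 0.5.

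The protein genes differed in direction between glycine levels. As listed, mt-Co1 and mt-Co3 rose at 0.8 mM, mt-Nd4 and mt-Cytb fell, and the other 9 did not pass limma's test (adjusted p under 0.05 over the 10049 genes tested). Of all genes tested, 16.7% rose and 9.81% fell, and the groups did not overlap for 28.2%. Against that background, 2 of 13 rising, 2 of 13 falling and 4 of 13 without overlap are shares like those of genes at large. The median log2 change of the 13 was 0.14, beside 0.062 over all genes tested. With the nuclear copies added, 3 genes rose (mt-Co1, mt-Co2 and mt-Co3), 3 fell (mt-Nd3, mt-Nd4 and mt-Cytb) and 7 did not pass, in a fit where 16.8% of genes rose, 9.84% fell and 28.2% had groups without overlap. Leaving out replicate 2 of 0.2 mM raised the count from 4 to 7 genes, 5 up and 2 down, by adding mt-Co2, mt-Nd1 and mt-Nd5.

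Among the subunits of complex IV, mt-Co3 (chrM:8607-9390), which encodes subunit III of cytochrome c oxidase, had the greatest difference of the 13 genes. As listed it was at 350.3, 412 and 363 TPM in the libraries at 0.2 mM, and from 701 to 1422 (median 1009.6) TPM at 0.8 mM, where it varied more than at 0.2 mM (coefficients of variation 8.74 and 24.4%). Every library at 0.8 mM was above every library at 0.2 mM. Its copy Gm28437 was at 378, 396 and 291 TPM at 0.2 mM and from 317 to 993 TPM at 0.8 mM, a share of 18.2 to 58.6% of their joint TPM. Across the 6 libraries at 0.8 mM the order of Gm28437 was the reverse of that of mt-Co3. Replicate 6 had 701 and 993 TPM of gene and copy, and replicate 5 had 1422 and 317 TPM. The sum of both was 728, 808 and 654 TPM at 0.2 mM and 1564 to 1762 (median 1692) TPM at 0.8 mM, so the coefficient of variation at 0.8 mM dropped to 4.15%. On this sum, mt-Co3 rose from 729.8 ± 76.8 (SD, n = 3) to 1684 ± 69.9 (SD, n = 6) TPM, 2.31-fold. The log2 change was 1.21 ± 0.063 (SE) with limma adjusted p = 1.94e-07, against 1.39 ± 0.18 and 0.000162 for the row as listed. It was called in each of the 32 alternatives run, with log2 changes from 1.13 to 1.49.

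**Figure D2:**
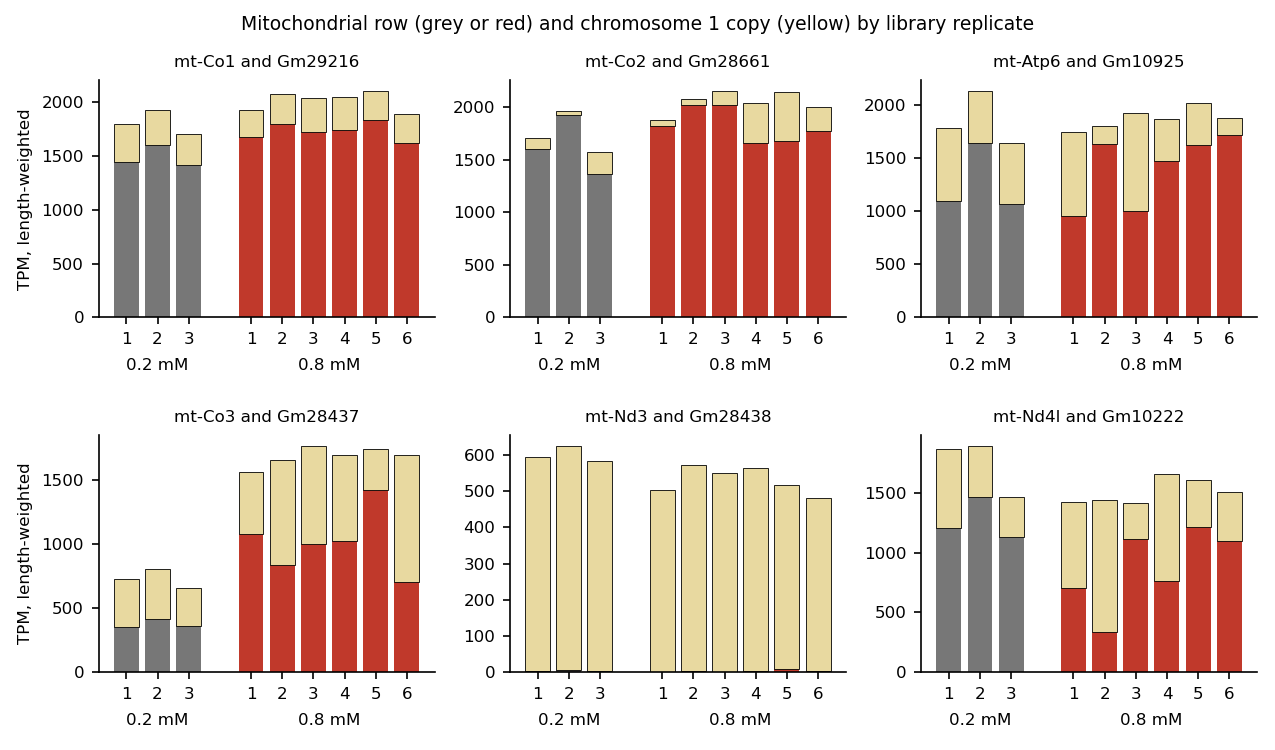
TPM of 6 mitochondrial genes in each library (grey 0.2 mM, red 0.8 mM), with the TPM of the chromosome 1 copy stacked on top in yellow after weighting by length. The split between gene and copy differs between libraries of a group, as for mt-Nd4l and mt-Atp6, while the stacks of a group have similar heights. The mt-Co3 stacks are from 654 to 808 TPM at 0.2 mM and from 1564 to 1762 TPM at 0.8 mM.

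The other two mitochondrial subunits of complex IV differed by less than mt-Co3. mt-Co1, the catalytic subunit I, was at 1448, 1605 and 1416 TPM at 0.2 mM and 1622 to 1834 (median 1730.5) TPM at 0.8 mM, with no overlap. It rose by 0.22 ± 0.052 (log2, SE; limma adjusted p = 0.00959) as listed. This call was lost under median-ratio scaling (adjusted p = 0.118), quantile normalization (0.194) and eBayes without a trend (0.0878). With Gm29216 added the groups overlapped, and the log2 change was 0.15 ± 0.049 (limma adjusted p = 0.0389). That call was lost without replicate 1 or 3 of 0.2 mM (adjusted p = 0.109 and 0.158) and without any 1 of replicates 2, 3, 4 and 5 of 0.8 mM (0.0685 to 0.0697). mt-Co2, subunit II, which takes electrons from cytochrome c, was at 1604, 1925 and 1363 TPM and 1654 to 2021 (median 1798) TPM as listed and did not pass (log2 change 0.17 ± 0.10, limma adjusted p = 0.244), but did without replicate 2 of 0.2 mM (adjusted p = 0.047). With Gm28661 added, which took 2.08 to 21.7% of the joint TPM, it was at 1705, 1965 and 1573 TPM and 1876 to 2150.2 (median 2062) TPM and rose by 0.23 ± 0.067 (limma adjusted p = 0.025). The groups overlapped, and the call was lost without replicate 1 or 3 of 0.2 mM (adjusted p = 0.0862 and 0.114).

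For complex V, the 2 genes did not pass in any fit. mt-Atp8, a short subunit of the ATP synthase's membrane part, was at 10989.5, 13269.7 and 11254 TPM at 0.2 mM and 11036 to 13276 (median 12167) TPM at 0.8 mM (log2 change 0.044 ± 0.068, limma adjusted p = 0.685). mt-Atp6, which forms part of the proton channel, was at 1094, 1637 and 1062 TPM and 955 to 1717 (median 1547) TPM (log2 change 0.14 ± 0.22, limma adjusted p = 0.695). Gm10925 took from 8.49 to 48% of the joint TPM, and adding it narrowed the 6 libraries at 0.8 mM from a coefficient of variation of 24 to 4.96%. The sums were 1785, 2126 and 1639 TPM and 1745 to 2013 (median 1871) TPM, which overlapped (log2 change 0.023 ± 0.074, limma adjusted p = 0.853).

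mt-Atp8, mt-Atp6 and mt-Co3 follow each other on the genome with no tRNA between them, and mt-Co3 starts on the last base of mt-Atp6. The ratio of mt-Co3 to mt-Atp6 therefore compares neighbours of a single precursor. With copies added it was 0.396 ± 0.0142 at 0.2 mM and 0.901 ± 0.0199 at 0.8 mM, from 0.38 to 0.408 and from 0.864 to 0.919 (p = 0.0238 by exact permutation, adjusted p = 0.039 over 18 measures). As listed it was 0.305 ± 0.0469 at 0.2 mM and 0.77 ± 0.283 at 0.8 mM (p = 0.0238 by exact permutation, adjusted p = 0.0476). That unadjusted value is the smallest that splits of 3 against 6 libraries can give. Adjusted p over the 18 measures therefore depends on how many of them reach it. Several of these measures share genes, among them mt-Co3. The ratio of mt-Atp8 to mt-Atp6 was 6.42 ± 0.387 at 0.2 mM and 6.51 ± 0.113 at 0.8 mM with copies added (p = 0.571 by exact permutation, adjusted p = 0.643). Downstream of mt-Co3, the row of mt-Tg was listed at 0 TPM in every library, so no level of the glycine tRNA can be set beside it.

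Complex I holds 7 mitochondrially encoded subunits, which differed in sign. mt-Nd4 (chrM:10167-11544), a proton-pumping subunit of the membrane arm, was at 338, 348 and 276 TPM at 0.2 mM and 212 to 260.2 (median 245) TPM at 0.8 mM. All 6 libraries at 0.8 mM were below all 3 at 0.2 mM, and mt-Nd4 fell by 0.41 ± 0.084 on the log2 scale (limma adjusted p = 0.00406). Its copy Gm28439 was listed at 0 TPM in every library, so this row is the same in both fits, and the call held in all 32 alternatives. mt-Nd4l, which lies just upstream and shares 7 bases with mt-Nd4, was at 1202, 1462 and 1126 TPM and 337 to 1212 (median 926) TPM, with 21.5 to 76.7% of the joint TPM on the row of its copy Gm10222. As listed it did not pass (log2 change -0.65 ± 0.34, limma adjusted p = 0.201). The sum of both rows was 1866, 1887 and 1462 TPM and 1410.5 to 1651 (median 1470.5) TPM. The groups overlapped and it did not pass (log2 change -0.20 ± 0.084, limma adjusted p = 0.108), although it did without replicate 3 of 0.2 mM (adjusted p = 0.00641). The ratio of mt-Nd4l to mt-Nd4 with copies added was 5.41 ± 0.114 at 0.2 mM and 6.28 ± 0.484 at 0.8 mM (p = 0.0238 by exact permutation, adjusted p = 0.039). As listed it was 3.95 ± 0.338 at 0.2 mM and 3.67 ± 1.5 at 0.8 mM (p = 0.714 by exact permutation, adjusted p = 0.756). The copies added TPM only to the mt-Nd4l side of this ratio. No tRNA gene lies between mt-Nd4l and mt-Nd4, and how far the assignment of reads sets their ratio was not tested.

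mt-Nd3, a small subunit near the junction of the membrane and matrix arms, was almost absent from its own row. It was listed at 3.61, 6.02 and 4.03 TPM at 0.2 mM and 0 to 10.6 (median 3.49) TPM at 0.8 mM, while Gm28438 was at 595, 623 and 585 TPM and from 482 to 572 TPM. As listed mt-Nd3 did not pass (log2 change -0.52 ± 0.60, limma adjusted p = 0.583). The copy held 98 to 100% of the joint TPM, the greatest share of the 6 pairs, in a pair that differs by the 1 base shown above. The sum was 594, 624 and 584 TPM and 482 to 572 (median 534) TPM, without overlap. It fell by 0.18 ± 0.060 on the log2 scale (limma adjusted p = 0.0496). That value lies at the threshold: the call was kept only without replicate 2 or 4 of 0.8 mM (adjusted p = 0.0331 and 0.0434) and was lost without any other 1 of the 9 libraries (0.0596 to 0.172).

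The other four subunits of complex I have no listed copy above 0 TPM and none passed. mt-Nd1, which helps form the site where quinone is reduced, was at 669, 787 and 654 TPM and 731 to 806 (median 775) TPM (log2 change 0.14 ± 0.061, limma adjusted p = 0.121). mt-Nd2, a pumping subunit, was at 197, 198 and 161 TPM and 182 to 215 (median 209) TPM (0.14 ± 0.081, adjusted p = 0.254 with limma). mt-Nd5, the pumping subunit at the far end of the membrane arm, was at 131, 148 and 90.2 TPM and 142 to 188 (median 151) TPM (0.39 ± 0.15, limma adjusted p = 0.0747). Replicate 2 of 0.2 mM had the highest mt-Nd1 and mt-Nd5 of its group, and without it both passed (limma adjusted p = 0.0106 and 0.0317). mt-Nd5 also passed where the filter kept only genes with a mean of at least 5 TPM (adjusted p = 0.049). mt-Nd6, on the opposite strand, was at 137, 121 and 78.2 TPM and 115 to 164 (median 131) TPM (0.27 ± 0.16, limma adjusted p = 0.244). Its ratio to the sum of the 12 mRNAs of the other strand was 0.00566 ± 0.00156 at 0.2 mM and 0.00636 ± 0.000637 at 0.8 mM (p = 0.309 by exact permutation, adjusted p = 0.429). Neither passed when any 1 library was left out, but libraries of 0.2 mM moved both values: without replicate 1 the log2 difference was 0.44 for mt-Nd6 and 0.40 for the ratio, and without replicate 3 it was 0.037 and 0.0077.

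Complex III has 1 mitochondrially encoded subunit, cytochrome b, encoded by mt-Cytb (chrM:14145-15288), which carries both quinone sites of the complex. It was at 599.5, 669 and 594 TPM at 0.2 mM and 473 to 538 (median 508) TPM at 0.8 mM. All 6 libraries at 0.8 mM were below the lowest at 0.2 mM. mt-Cytb fell by 0.29 ± 0.059 on the log2 scale (limma adjusted p = 0.00374), from 621 ± 42 (SD, n = 3) to 507 ± 27.7 (SD, n = 6) TPM. No copy of it was found in the table, and the call held in all 32 alternatives.

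**Figure D3:**
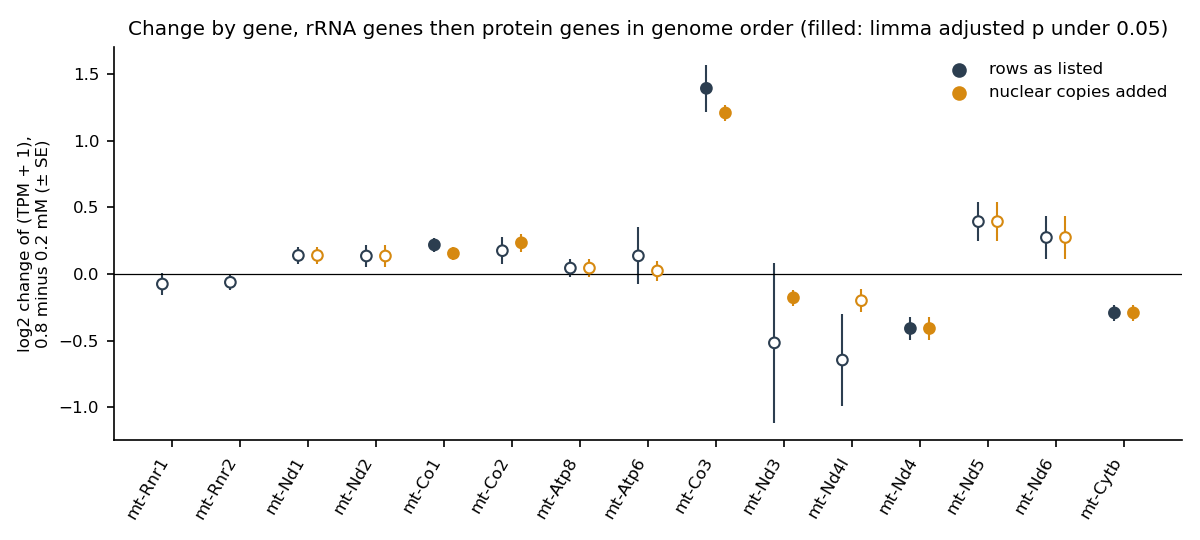
Log2 change of TPM + 1 (0.8 minus 0.2 mM, points, with SE bars) for the 2 rRNA genes and the 13 protein genes in genome order, as listed (dark) and with nuclear copies added (orange); filled points passed limma's test. mt-Co3 stands at 1.39 and 1.21 while the genes before and after it lie between -0.65 and 0.39, and the bars of mt-Atp6, mt-Co3, mt-Nd3 and mt-Nd4l shorten when the copies are added.

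Neither rRNA passed. mt-Rnr1, the RNA of the small mitochondrial ribosomal subunit, was at 2517, 2588 and 2002 TPM at 0.2 mM and 2066 to 2467 (median 2240.2) TPM at 0.8 mM (log2 change -0.075 ± 0.082, limma adjusted p = 0.553). mt-Rnr2, that of the large subunit, was at 11160.1, 11792 and 10026 TPM and 9640.5 to 11161 (median 10496) TPM (-0.062 ± 0.055, limma adjusted p = 0.458). The groups overlapped for both, and with limma 0 of 2 had an unadjusted p under 0.05. Their ratio, mt-Rnr2 to mt-Rnr1, was 4.67 ± 0.302 at 0.2 mM and 4.71 ± 0.357 at 0.8 mM (p = 0.976 by exact permutation, adjusted p = 0.976). Summed rRNA over summed mRNA was 0.673 ± 0.0495 at 0.2 mM and 0.608 ± 0.0389 at 0.8 mM as listed (p = 0.119 by exact permutation, adjusted p = 0.214). With the copies added to the mRNA it was 0.598 ± 0.0324 at 0.2 mM and 0.535 ± 0.0288 at 0.8 mM, without overlap (p = 0.0238 by exact permutation, adjusted p = 0.039). All 22 tRNA rows were listed at 0 TPM in all 9 libraries, and none could be tested. The rows measure 59 to 75 bases, and a value of 0 in a table without counts does not show that the tRNAs were absent.

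The composition of mitochondrial mRNA was compared by each gene's share of the 13 genes' summed TPM. As listed, 0 of 13 shares passed after adjustment over the 13 (exact permutation tests; 6 had an unadjusted p under 0.05). Of these, 5 were at p = 0.0238 by exact permutation, the smallest possible, with adjusted p = 0.0619. With copies added, 7 were at that smallest p and passed (adjusted p = 0.0442). For such ties the adjusted p depends on how many shares reach the smallest p. The share of mt-Co3 rose from 3.26 ± 0.113% to 7.07 ± 0.146%, that of mt-Co2 from 7.8 ± 0.184% to 8.59 ± 0.183% and that of mt-Nd5 from 0.546 ± 0.0957% to 0.667 ± 0.0597%. The share of mt-Cytb fell from 2.78 ± 0.0875% to 2.13 ± 0.12%, that of mt-Nd4 from 1.43 ± 0.122% to 1.01 ± 0.079%, that of mt-Nd3 from 2.69 ± 0.164% to 2.23 ± 0.158% and that of mt-Nd4l from 7.77 ± 0.821% to 6.32 ± 0.364%. Shares sum to a whole, so a gain in mt-Co3 lowers the others. By complex, the part of mitochondrial mRNA that codes for complex IV was 0.192 ± 0.00401 at 0.2 mM and 0.241 ± 0.00463 at 0.8 mM with copies added (p = 0.0238 by exact permutation, adjusted p = 0.039). For complex I it was 0.169 ± 0.012 at 0.2 mM and 0.149 ± 0.00559 at 0.8 mM, and for complex III 0.0278 ± 0.000875 at 0.2 mM and 0.0213 ± 0.0012 at 0.8 mM, both with p = 0.0238 by exact permutation, adjusted p = 0.039. For complex V it was 0.611 ± 0.0157 at 0.2 mM and 0.589 ± 0.00916 at 0.8 mM (p = 0.0952 by exact permutation, adjusted p = 0.143).

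Most nuclear subunits of the same complexes rose at 0.8 mM. Of 78 tested for complexes I, III, IV and V, 57 rose, 2 fell and 19 did not pass, with a median log2 change of 0.37 (median-ratio scaling gave 47 and 3, and quantile normalization 41 and 5, rising and falling). Over all genes tested, 16.7% rose and 9.81% fell. In complex I, 23 of 36 rose and 0 fell, with the smallest limma adjusted p for Ndufv3 (235 ± 6.75 to 403 ± 27.8 TPM) and Ndufc1 (1582 ± 48.4 to 2260.0 ± 122 TPM). In complex III, 8 of 9 rose, among them Uqcr11 (349 ± 23.4 to 738 ± 33.7 TPM), and Uqcrq fell (708 ± 42 to 502 ± 65.1 TPM; named after its value was seen). In complex IV, 10 of 16 rose, with the smallest adjusted p for Cox6c (1269 ± 48.4 to 2134 ± 55.9 TPM). Of its subunit forms found in heart and skeletal muscle, Cox6a2, of subunit VIa, fell from 139 ± 3.54 to 48.2 ± 4.21 TPM, and Cox7a1, of subunit VIIa, rose from 3.73 ± 1.55 to 23 ± 3.38 TPM (limma adjusted p = 1.01e-05; named after its value was seen). In complex V, 16 of 17 rose, with the smallest adjusted p for Atp5l (1468 ± 44.1 to 2168 ± 42.7 TPM) and Atp5g3 (186 ± 11 to 320.5 ± 15 TPM) and the greatest log2 change, 1.10, for Atp5a1 (57.4 ± 5.03 to 124 ± 10.5 TPM). Of the 4 subunits of complex II, which has no mitochondrial gene, 3 rose and 0 fell.

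Mitochondrial over nuclear subunit mRNA, summed over the 4 complexes as TPM, was 0.65 ± 0.0725 at 0.2 mM and 0.51 ± 0.0376 at 0.8 mM as listed (p = 0.0238 by exact permutation, adjusted p = 0.0476). The ratio was lower in each of the 6 libraries at 0.8 mM than in any at 0.2 mM. Its adjusted p depends on how many of the 18 overlapping library measures reach the smallest possible p. With copies added it was 0.73 ± 0.0707 at 0.2 mM and 0.578 ± 0.0352 at 0.8 mM, also without overlap. With the mean of log2(TPM + 1) over genes in place of the sums the difference missed the threshold (-0.29 on the log2 scale, exact permutation p = 0.0714), and mt-Atp8 makes up 57.4 to 61% of the mitochondrial sum. By complex, with copies added, the ratio was 0.546 ± 0.0627 at 0.2 mM and 0.403 ± 0.0237 at 0.8 mM for complex I, 0.19 ± 0.0135 at 0.2 mM and 0.117 ± 0.00768 at 0.8 mM for complex III and 1.42 ± 0.136 at 0.2 mM and 1.02 ± 0.0734 at 0.8 mM for complex V, each with p = 0.0238 by exact permutation, adjusted p = 0.039. For complex IV it was 0.398 ± 0.0394 at 0.2 mM and 0.399 ± 0.0196 at 0.8 mM (p = 1 by exact permutation, adjusted p = 1). The difference between complexes was not tested.

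**Figure D4:**
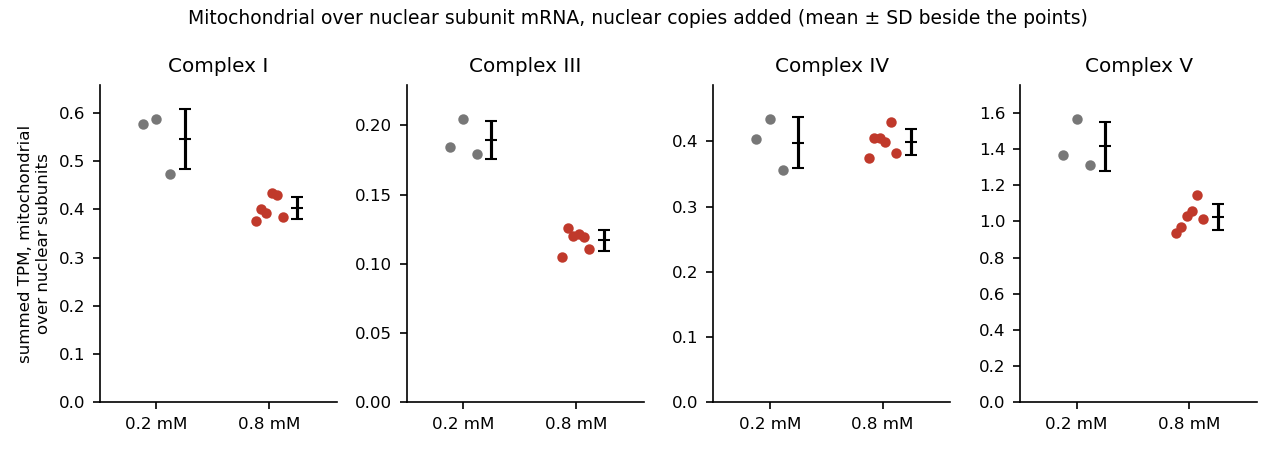
Summed TPM of mitochondrial subunits over summed TPM of nuclear subunits for complexes I, III, IV and V, 1 point per library with the mean ± SD beside the points, nuclear copies added. The groups are apart for complexes I, III and V, with lower ratios at 0.8 mM, and overlap for complex IV, where the means are 0.398 and 0.399.

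Nuclear genes that act on mitochondrial RNA and DNA were compared in the same fit, in which 16.7% of all genes tested rose and 9.81% fell. Of 8 tested transcription genes, 0 rose and 0 fell by limma, and 1 had an unadjusted p under 0.05 (with median-ratio scaling or quantile normalization, 1 fell). The polymerase gene Polrmt was at 3.28 ± 1.42 and 3.35 ± 1.77 TPM (limma adjusted p = 0.97). Tfam, whose protein packs mitochondrial DNA and starts transcription, was at 5.53 ± 2.39 and 3.02 ± 0.419 TPM. It missed the threshold, with a log2 change of -0.63 ± 0.21 and limma adjusted p = 0.0511, and passed in 4 of the 21 alternatives that kept it, among them the one without replicate 3 of 0.2 mM (adjusted p = 0.00191). For genes of RNA processing and stability, 1 of 21 rose and 0 fell. The one that rose was Slirp (163 ± 12 to 198 ± 18.3 TPM, limma adjusted p = 0.0278), a call kept in 13 of 22 alternatives without nuclear copies. Its partner Lrpprc was at 1.92 ± 0.19 and 1.86 ± 0.565 TPM. For genes of mitochondrial DNA maintenance, 0 of 13 rose and 2 fell, namely Slc25a33, a pyrimidine nucleotide carrier (5.62 ± 0.126 to 2.61 ± 0.599 TPM), and Top1mt, the mitochondrial topoisomerase (2.92 ± 0.149 to 1.74 ± 0.418 TPM). Among enzymes that modify mitochondrial tRNA, 0 of 16 rose and 1 fell, Qtrt1, which puts queuine into tRNA (6.06 ± 0.683 to 3.57 ± 0.873 TPM), and among those for rRNA, 0 of 8 rose and 0 fell by limma, with 0 at an unadjusted p under 0.05.

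For each count in the lists that follow, the background is again 16.7% of all genes tested rising and 9.81% falling. Regulators of mitochondrial biogenesis included 3 that fell of 9 tested, Myc (11 ± 0.876 to 5.33 ± 1.47 TPM), Tfe3 (8.39 ± 1.83 to 5.08 ± 0.913 TPM) and Gabpb1 (3.59 ± 0.997 to 2.08 ± 0.342 TPM). Ppargc1a, the coactivator PGC-1 alpha, stayed under 1 TPM in both groups (0.027 ± 0.0468 and 0.046 ± 0.0449 TPM) and was not tested. Of 77 genes with symbols of the mitochondrial ribosomal protein series (Mrpl or Mrps), taken by symbol alone, 10 rose and 10 fell. These are shares like those of genes at large. Among them, Mrpl18 was up (18.6 ± 0.984 to 30.8 ± 2.03 TPM) and Mrpl24 down (54.1 ± 3 to 25.4 ± 3.26 TPM). Median-ratio scaling turned the counts to 7 and 16. For tRNA synthetases of mitochondria, 1 of 16 rose and 1 fell. The one that fell, Gars, makes glycyl-tRNA for cytosol and mitochondria (32.9 ± 2.11 to 26.8 ± 1.88 TPM), and the one that rose, Qrsl1, belongs to the complex that forms glutaminyl-tRNA (0.476 ± 0.192 to 1.17 ± 0.329 TPM). Qrsl1 averaged under 1 TPM at 0.2 mM and passed the filter through the libraries at 0.8 mM. Its call held in 13 of the 21 alternatives that kept the gene, and was lost with no filter, under quantile normalization and in both fits of libraries 1 to 3. For translation and assembly factors, 2 of 18 rose and 3 fell. The copper carriers of complex IV moved in opposite directions, with Cox17 up (669 ± 15.8 to 827 ± 44.6 TPM) and Sco2 down (7.56 ± 2.46 to 2.73 ± 0.986 TPM). Mrrf, which recycles mitochondrial ribosomes, fell (16.7 ± 3.25 to 8.88 ± 2.61 TPM), and Tufm, the mitochondrial elongation factor Tu, rose (14.6 ± 1.74 to 19.1 ± 0.771 TPM). In a list of 20 abundant genes of mitochondrial membranes and matrix, 6 rose and 3 fell. The ADP/ATP carriers Slc25a4 (90.2 ± 2.41 to 161 ± 7.9 TPM) and Slc25a5 (248 ± 19.4 to 344 ± 13.5 TPM) and the phosphate carrier Slc25a3 (159 ± 5.88 to 219 ± 6.01 TPM) rose, and the outer membrane channel gene Vdac3 fell (91 ± 4.85 to 64.5 ± 3.36 TPM). Without replicate 2 of 0.2 mM the calls of Top1mt, Qtrt1, Tfe3, Gabpb1, Gars, Qrsl1, Tufm and Slirp were lost (limma adjusted p = 0.0527 to 0.134). Calls were also lost without replicate 1 (Top1mt and Gabpb1) or 3 (Top1mt, Qtrt1, Gars, Qrsl1 and Slirp) of 0.2 mM, and without replicate 1 (Qrsl1), 3 (Slirp, Gabpb1 and Qrsl1) or 6 (Gabpb1) of 0.8 mM, with limma adjusted p from 0.0506 to 0.13. The call of Cox17 was lost under quantile normalization (limma adjusted p = 0.0905).

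Markers of the labelled cell type were present, and 8 of 10 rose at 0.8 mM (5 to 9 in the alternatives without nuclear copies). Over all genes tested, 16.7% rose and 9.81% fell, the background for each marker count here. Among the myoblast markers that rose were Myod1 (35.7 ± 4.55 to 69.3 ± 5.7 TPM), Myog (247 ± 16.9 to 523 ± 41.2 TPM) and Des (104 ± 12.8 to 356 ± 30.5 TPM). Pax7, a satellite cell marker, was at 0.712 ± 0.176 and 1.2 ± 0.312 TPM. Markers of other cell types were present too. The 16 macrophage markers summed to 2258 to 2465 TPM at 0.2 mM and 2299 to 2776 TPM at 0.8 mM, and of 14 tested 4 rose (Lyz2 588 ± 30.6 to 1013 ± 153 TPM) and 2 fell (Cd68 182 ± 13.6 to 57.6 ± 2.38 TPM; Ctss 387 ± 18 to 222 ± 9.12 TPM). The 10 fibro-adipogenic markers summed to 2242 to 2618 and 2624 to 3186 TPM, of which Dcn held 1878 ± 184 and 1689 ± 209. Of 9 tested, 7 rose (Ly6a 313 ± 19.6 to 901 ± 37.1 TPM) and 0 fell, and Tcf21 was listed at 0 in every library. The 9 endothelial markers summed to 32.3 to 35.2 and 36.2 to 48.6 TPM, with 3 of 5 tested rising. Of these, Pecam1 and Cdh5 averaged under 1 TPM at 0.2 mM (0.885 ± 0.0307 and 0.777 ± 0.157 TPM), so they passed the filter through the libraries at 0.8 mM. Where the filter asked for a mean of at least 5 TPM, 0 of 2 endothelial markers rose. Itgam and Pi16, counted above among the macrophage and fibro-adipogenic markers that rose, also averaged under 1 TPM at 0.2 mM. Mitochondrial levels differ between cell types, and the part of these markers' cells in the differences of mt-Co3, mt-Nd4, mt-Cytb and the other mitochondrial genes was not tested.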

How the data were processed

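RNA of 9 libraries was extracted with Trizol and made into libraries with a TruSeq RNA kit, per the labels' protocols. Per the submitters' processing notes, HISAT2 2.0.5 (an aligner), StringTie 1.3.3 (a transcript quantifier), DESeq2 and the mm10 build were used by the authors, but the sources used here do not state their roles, the annotation or the use of strand. Values deposited by the authors are TPM per gene, which sum to 1000000 in each library and keep no read depth, so precision comes from the spread between libraries alone. No 2 libraries held identical values.

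Genes were matched to GENCODE M21 by Ensembl ID (53620 of 53715 IDs without version), since the table lists the chromosome 1 copies under clone names. Copies of the 15 longer members were sought with BLAST 2.17.0 among annotated transcripts, asking for at least 100 bases at 95% identity or more. That gave 11 copies of 9 members in the table, of which 6 reached 1 TPM in at least 3 libraries. Copies that are not annotated were not searched.

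Groups were tested with limma 3.58.1 (R 4.3.3) on log2(TPM + 1), eBayes with trend, two-sided, over 10049 genes with at least 1 TPM in at least 3 libraries, with Benjamini-Hochberg adjustment. Log2 changes are 0.8 minus 0.2 mM on that scale, which understates low genes. The procedure was tested on simulated data. Ratios and shares were compared by exact two-sided permutation over the 84 splits (SciPy 1.17.1), whose smallest p is 0.0238. All 13 protein genes, both rRNA genes and mt-Tg were named whatever their result, and of each nuclear list up to 4 genes that passed with the smallest adjusted p, besides Polrmt, Tfam, Lrpprc, Slirp and Ppargc1a. The members and lists were chosen with earlier results of these data known. The sum of gene and copy was added after seeing the data. Alternatives were other pseudocounts, filters, scalings, variance settings and library weights, each library left out, and a block by library number.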

Additional observations from a re-analysis of the deposited data

Results flagged for a closer look

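Among 45 values checked across the 6 libraries at 0.8 mM for 1 library far from the others, 2 exceeded Dixon's critical value of 0.625 (gap to the nearest library over the whole range), where chance gives about 1 in 20. For mt-Nd6, replicate 5 was at 164.4 TPM and the other 5 libraries at 115.2 to 132.8 TPM, a Dixon ratio of 0.642. For the ratio of mt-Rnr2 to mt-Rnr1, replicate 2 was at 5.40 and the other 5 libraries at 4.41 to 4.76, a Dixon ratio of 0.65. Neither quantity passed its test between glycine levels.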

How the results depend on the processing

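mt-Co3, mt-Nd4 and mt-Cytb kept their direction and their call in all 32 alternatives, of which 10 (the sum of gene and nuclear copy, with and without leaving out a library) were added after seeing the data. The count of protein genes called ranged from 4 to 7 when 1 library was left out, and from 3 to 7 with copies added as well; 7 came without replicate 2 of 0.2 mM. With copies added, 7 shares of mitochondrial mRNA passed in place of 0, a step set by how many shares tie at the smallest possible p. Also with copies added, the log2 difference of rRNA over mRNA passed at -0.16. The mitochondrial to nuclear mRNA difference of -0.35 ranged from -0.41 to -0.26 on the log2 scale without 1 library, where 2 against 6 libraries cannot go below an exact permutation p of 0.0714. It was -0.29 with the mean of logs (exact permutation p = 0.0714). Signs turned only for values that did not pass. Under quantile normalization these were mt-Nd1 (-0.024), mt-Nd2 (-0.066), mt-Atp6 (-0.015) and mt-Rnr2 (0.15). Under median-ratio scaling they were mt-Atp8 (-0.041) and the summed protein genes (-0.0035). Without 0.2 mM replicate 1, mt-Atp8 was at -0.0068, also with copies, in a range without 1 library up to 0.13, and mt-Atp6 with copies ranged from -0.060 (without 0.2 mM replicate 3) to 0.13. These scalings moved the calls over all genes from 1683 rising and 986 falling to 1419 and 1279 (median-ratio) and 1324 and 1335 (quantile).

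Libraries share numbers 1 to 3 between series, but the labels do not say that a number marks a shared culture, so the numbers were not taken as pairs. Deviations from the group mean correlated over genes at r = 0.023, 0.030 and 0.081 for same-numbered libraries. For differently numbered ones r was from -0.104 to 0.080. These values are too close together to settle whether the libraries were paired. With the number as a replicate block, 4 protein genes were called as in the fit of these 6 libraries without it, over all genes 1117 rose and 596 fell, mt-Atp6 was at -0.10 in both, and the mitochondrial to nuclear difference was -0.40 (exact sign-flip p = 0.25, the smallest for 3 pairs). mt-Nd3 has no value with the filter at a mean of 5 TPM, nor the rRNA genes where all rRNA was left out. Depth is unknown, so how far counting noise limits mt-Nd3 or the 22 tRNA rows at 0 cannot be given.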
